A study of Mus musculus with 9 samples.

Results

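The long noncoding RNA (lncRNA) genes described here are those with solid counts in MLO-Y4 cells. They are the rows of the gene table whose biotype is lncRNA and whose raw count was at least 20 in each of the 9 libraries. The rule kept 379 of the 11288 lncRNA genes in the table, which holds 56748 genes in all. Counts chose these genes, so their levels are a description and carry no test. The rule used no group label, but a gene that fell below 20 counts in any library could not enter, which limits how far a member could fall. At the edge of the rule, Mypopos had between 20 and 72 counts per library and was kept, whereas R74862 had between 19 and 58 and was not.

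MLO-Y4 is a mouse osteocyte-like cell line, and its RNA was sequenced after culture below transwell inserts that carried primary articular chondrocytes from C57BL/6J pups. The 3 groups had 3 libraries each. In the 24h and 48h groups the chondrocytes had first received interleukin-1β at 10 ng/ml for 6 h, and the 2 cell types then shared medium for 24 or 48 h. In the control group the chondrocytes were unstimulated, and the labels give no culture time for it, so time in culture and the stimulus cannot be told apart. The sample labels of the 48h libraries name the cells MLO-Y5, MLO-Y6 and MLO-Y7 while the protocol names MLO-Y4 throughout, and whether a different cell stock was used was not tested. The labels do not say whether the 3 libraries of a group came from separate cultures, so the p-values measure the spread between these libraries only.

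A lncRNA is a long transcript with no long reading frame. Some act where they are made, on the gene next to them, and others build nuclear bodies or bind proteins and microRNAs (miRNAs). A further set serves mainly as host transcripts, whose introns or exons are cut to give small nucleolar RNAs (snoRNAs), which guide the modification of ribosomal RNA, or miRNAs, which repress messenger RNAs through a short seed. Because many lncRNA genes overlap or lie beside a coding gene, each member is given below with its coding neighbour where it has one.

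The libraries held between 12250628 and 18515456 counts, and levels are given as CPM, counts scaled to a common library total. Members took 0.400% to 0.419% of the counts in the control libraries, 0.392% to 0.412% at 24 h and 0.479% to 0.481% at 48 h, so the 48h libraries stood above the other 6. Without the 3 most abundant members the shares were 0.313% to 0.319%, 0.305% to 0.317% and 0.359% to 0.362%. Other classes moved at the same time. The share of TEC genes, a class of unclassified transcripts still to be experimentally checked, was 0.0585% to 0.0670% in control and 0.0774% to 0.0823% at 48 h. The share of ribosomal RNA genes was 0.0592% to 0.0627% at 24 h and 0.106% to 0.134% at 48 h, with control replicates between 0.0572% and 0.106%. Their part in the results below was not tested. Among osteocyte markers, the gap junction gene Gja1 and the collagen gene Col1a1 were abundant, but the defining mature markers were nearly absent, with at most 6 counts of Dmp1 and 1 count of Sost in any library and none of Mepe or Fgf23. The 10 osteocyte markers summed to 3247 to 3447 CPM in control and 4025 to 4098 CPM at 48 h. Of the 6 that were tested, Gja1, Pdpn and Phex were higher at 48 h and Col1a1, Cd44 and Bglap were lower. In bulk libraries, a smaller number of cells of a type and less RNA per cell cannot be told apart. Macrophage and osteoclast markers summed to 131 to 149 CPM in control, 102 to 103 CPM at 24 h and 112 to 130 CPM at 48 h, both times below every control library, and 2 of the 3 that were tested were lower at 24 h. Endothelial markers summed to at most 0.521 CPM in any library. The 12 chondrocyte markers summed to 1681 to 1717 CPM in control, 1566 to 1649 CPM at 24 h and 2128 to 2217 CPM at 48 h, almost all of it from Prg4 and Sox9. Without these genes the other 10 summed to 5.34 to 7.37 CPM in control, 3.81 to 4.94 CPM at 24 h and 4.2 to 5.77 CPM at 48 h, and Acan, Col9a1, Col9a2 and Matn1 had no counts.

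**Figure D1:**
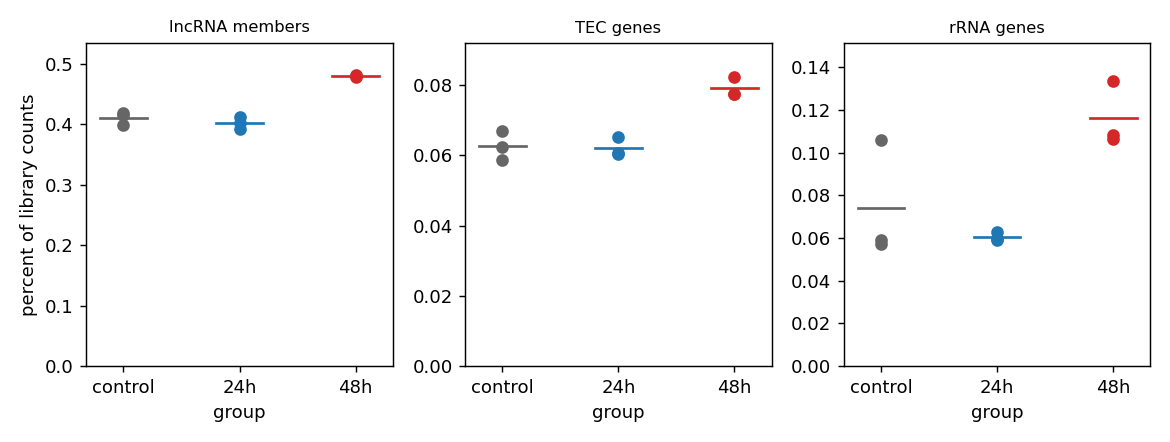
Percent of each library's counts in lncRNA members (left), TEC genes (middle) and rRNA genes (right), with 1 dot per library, a bar for the mean of the 3 libraries of a group, and axes that start at 0. Members took 0.479% to 0.481% in the 48h libraries and at most 0.419% in the others, and TEC and rRNA shares were also highest on average at 48 h.

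Sequences of members described below are shown first. Of the 379 members, 17 span at least 1 annotated miRNA hairpin on their own strand. At 48 h 23.5% of them were called higher and 29.4% lower, near the 22.0% and 24.4% of all genes tested. Below, 9 mature miRNAs come from hosts called lower at 48 h (Mir17hg, Gm14636 and Dleu2) and 6 from hosts called higher (6720427I07Rik, Dnm3os and Gm49890). Each of the 3 lower calls was lost in some edgeR fits that left out 1 library (adjusted p up to 0.219, 0.292 and 0.0708). The miRNAs are grouped by shared seed, and the capitals mark the seed, bases 2 to 8, through which a miRNA pairs with its targets. The sequences are from RefSeq (GRCm38.p6), and each hairpin lies within its host by the gene spans of the count table (GRCm39). Gm14636 is one of 6 members that GENCODE M39 does not list under their identifier. The 6 hairpins of Mir17hg lie at chr14:115281103-115281938, those of Gm14636 at chrX:19012533-19013210 and those of 6720427I07Rik at chr13:48689488-48691748. RNA-seq counts measured the host transcripts, not the mature miRNAs. A further let-7a hairpin, let-7a-2, lies in Mir100hg, a host called lower at 48 h. That call was also lost in some edgeR fits that left out 1 library (adjusted p up to 0.101).
miR-17-5p (Mir17hg): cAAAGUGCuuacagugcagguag
miR-20a-5p (Mir17hg): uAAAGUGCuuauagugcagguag
miR-19a-3p (Mir17hg): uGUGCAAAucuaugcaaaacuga
miR-19b-3p (Mir17hg): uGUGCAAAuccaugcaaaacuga
miR-92a-3p (Mir17hg): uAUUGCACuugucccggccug
miR-221-3p (Gm14636): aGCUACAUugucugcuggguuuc
miR-222-3p (Gm14636): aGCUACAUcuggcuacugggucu
miR-15a-5p (Dleu2): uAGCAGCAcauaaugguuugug
miR-16-5p (Dleu2): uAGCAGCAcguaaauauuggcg
let-7a-5p (6720427I07Rik): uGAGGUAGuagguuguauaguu
let-7d-5p (6720427I07Rik): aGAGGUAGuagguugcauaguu
let-7f-5p (6720427I07Rik): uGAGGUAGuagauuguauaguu
miR-199a-5p (Dnm3os): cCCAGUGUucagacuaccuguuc
miR-214-3p (Dnm3os): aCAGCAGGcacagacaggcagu
miR-31-5p (Gm49890): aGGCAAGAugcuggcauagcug

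Many snoRNA host genes in mammals start within a run of pyrimidines, a feature they share with genes of the translation machinery. The 50 bases around the annotated start, 20 before it and 30 from it on, are shown on the gene's own strand (GRCm39, GENCODE M39) for a few of the 24 members that host snoRNAs. Capitals mark an unbroken run of at least 5 C or T over the start. Snhg5 and Snhg16 were lower at 48 h, Snhg8 and 1110038B12Rik were not called, Snhg15 showed the largest fall and Snhg18 rose.
Snhg5, chr9:88404912-88404961, minus strand: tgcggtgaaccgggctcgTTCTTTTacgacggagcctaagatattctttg
Snhg16, chr11:116562476-116562525, plus strand: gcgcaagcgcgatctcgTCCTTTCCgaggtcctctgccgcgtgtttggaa
Snhg8, chr3:123302549-123302598, minus strand: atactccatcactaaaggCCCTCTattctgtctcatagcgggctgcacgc
1110038B12Rik, chr17:35171609-35171658, minus strand: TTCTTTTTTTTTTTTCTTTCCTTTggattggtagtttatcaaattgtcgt
Snhg15, chr11:6478737-6478786, minus strand: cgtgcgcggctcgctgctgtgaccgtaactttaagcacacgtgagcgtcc
Snhg18, chr15:32244755-32244804, minus strand: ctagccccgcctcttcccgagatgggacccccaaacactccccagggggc

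Such a run lay over the start of 6 of 24 snoRNA hosts (25%), of 38 of 373 members with an annotated start (10.2%) and of 1379 of 11761 tested coding genes (11.7%). It was present in hosts that fell and in hosts that were not called. In windows from 250 bases before to 50 bases after the start, searched on both strands, the hypoxia core ACGTG was found in 26.3% of members and 26.3% of coding genes. The E-box CACGTG, whose letters contain that core, was found in 9.92% of members and 10.2% of coding genes. TGANTCA, the AP-1 site, was found in 6.17% of members and 5.40% of coding genes, and the NF-κB core site in 2.68% and 1.81%. A match of letters is no evidence of binding.

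At 48 h members were more often higher than lower. By edgeR's quasi-likelihood test over all 13812 genes tested, with Benjamini-Hochberg adjustment and a call at an adjusted p under 0.05, 106 members were higher than in control and 33 were lower. That is 28.0% and 8.71% of the members, beside a background of 22.0% of all genes tested that were higher and 24.4% that were lower. The median log2 fold change was 0.19 over members, -0.0022 over all genes tested and -0.01 over the 11780 coding genes. The excess of higher values was not limited to members: the 634 tested lncRNA genes outside the rule had a median of 0.32, with 97 higher and 13 lower, and the 203 tested TEC genes a median of 0.31, with 34 higher and 4 lower. Of the 139 calls, 101 members had every 48h library above every control library and 31 had every one below. Changes were mostly modest, with a median absolute log2 fold change of 0.63 among called members, and 11 rose and 2 fell by at least 1. Under 15 refits with another scaling, filter, model or set of libraries, 73 of the higher and 16 of the lower calls passed every time. Without 48h replicate 3 the count of lower members was 21.

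At 24 h few members were called. There were 5 higher (1.32% of members) and 5 lower (1.32%), beside a background of 3.25% and 2.90% of all genes tested, and the median log2 fold change was -0.04. The count of higher members moved between 2 and 11 when 1 library was left out: it was 2 without control replicate 1, 3 without control replicate 2 or any one of the 24h libraries or 48h replicate 2, and 11 without control replicate 3. The count of lower members was 1 without control replicate 1, 2 without 24h replicate 1 or 3, and 3 without any one 48h library. Between the 2 stimulated groups, 124 members were higher at 48 h than at 24 h and 34 were lower, or 32.7% and 8.97%, beside 23.7% and 25.4% of all genes tested. The 2 comparisons with control share the control libraries, and the 2 with 48 h share the 48h libraries.

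**Figure D2:**
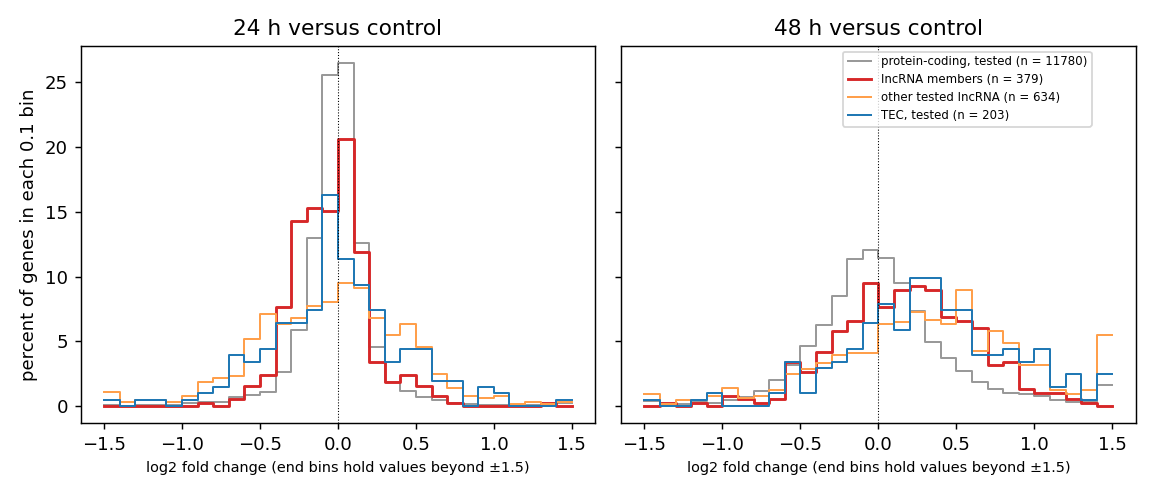
Distribution of log2 fold changes at 24 h (left) and 48 h (right) versus control for lncRNA members, other tested lncRNA genes, tested TEC genes and tested coding genes, as the percent of genes in each bin. At 24 h the member median was -0.04. At 48 h it was 0.19, beside -0.01 for coding genes, 0.32 for other lncRNA genes and 0.31 for TEC genes.

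The members were dominated by 3 well-studied RNAs. Malat1, which gathers in nuclear speckles, Neat1, the scaffold of paraspeckles, and Norad, a cytoplasmic decoy for Pumilio proteins that is induced by DNA damage, held 23.7% of all member counts, and the 10 largest members held 40.3%. The median member averaged 4.41 CPM, 301 of 379 averaged under 10 CPM and 7 over 100 CPM. Per kilobase of the table's gene length, Norad at 56.0 and Malat1 at 52.0 CPM per kilobase led the control group, followed by ENSMUSG00000120992 at 47.9, ENSMUSG00000120144 at 37.1 and Gm49172 at 31.4. Neat1, the longest of the 3, was at 15.1 on that scale. Norad shares 47.7% of its 31-base words with genes elsewhere, most with the processed copy Gm7292, and its reads could be split between them.

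Neat1 was the only member called in opposite directions at the 2 times. Its control libraries were at 322, 325 and 312 CPM, its 24h libraries at 265, 271 and 248 CPM, and its 48h libraries at 451, 424 and 409 CPM. The 3 groups did not overlap, with 24 h lowest and 48 h highest. On the log2 scale Neat1 differed from control by -0.29 (SE 0.05, adjusted p = 0.000846) after 24 h and by 0.42 (SE 0.05, adjusted p = 1.38e-06) after 48 h, and 48 h was higher than 24 h by 0.71 (SE 0.05, adjusted p = 1.54e-09). All 3 calls passed in every refit. Of the 11 genes listed for proteins of the paraspeckle, 8 were lower at 48 h than in control (72.7%, beside 24.4% of all genes tested). None was called at 24 h, when 3.25% of all genes tested were higher and 2.90% lower. Rbm14 was at -0.59 (adjusted p = 3.94e-07), Pspc1 at -0.42 and Sfpq at -0.30 on the log2 scale, while Nono was at 0.01 and was not called.

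Malat1, the neighbour of Neat1 on chromosome 19, was at 359, 282 and 451 CPM in control, 423, 336 and 357 CPM at 24 h and 451, 456 and 529 CPM at 48 h. One control library reached the lowest 48h libraries, so the groups overlapped. It rose by 0.40 (SE 0.12, adjusted p = 0.00934) at 48 h, a call that DESeq2 did not make (adjusted p = 0.0725). Norad was level, at 277 CPM ± 11.2 in control, 284 ± 11 at 24 h and 274 ± 10.9 at 48 h (SD, n = 3).

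Other members of the nuclear architecture and X inactivation list rose as well. Of its 7 members, 4 were higher at 48 h (57.1%, beside 22.0% of all genes tested) and none was lower (beside 24.4%). Firre, an X-linked RNA that organizes chromosome contacts in the nucleus, was at 22.9, 20.7 and 23.5 CPM in control, 18.8, 18.9 and 18.2 CPM at 24 h and 31, 29.2 and 30.4 CPM at 48 h. The 24h libraries were all below control, a difference that did not pass (log2 -0.26, adjusted p = 0.0647) except with library sizes alone as the scale or without control replicate 2. The 48h libraries were all above control (log2 0.43, SE 0.08, adjusted p = 0.000143). Oip5os1, also called Cyrano and known for triggering the decay of miR-7, went from 105 CPM ± 13.5 in control to 149 CPM ± 5.45 at 48 h (SD, n = 3), a rise of 0.50 (SE 0.07, adjusted p = 2.26e-05). Jpx and Ftx, activators of Xist in female cells, averaged under 10 CPM and were not called.

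**Figure D3:**
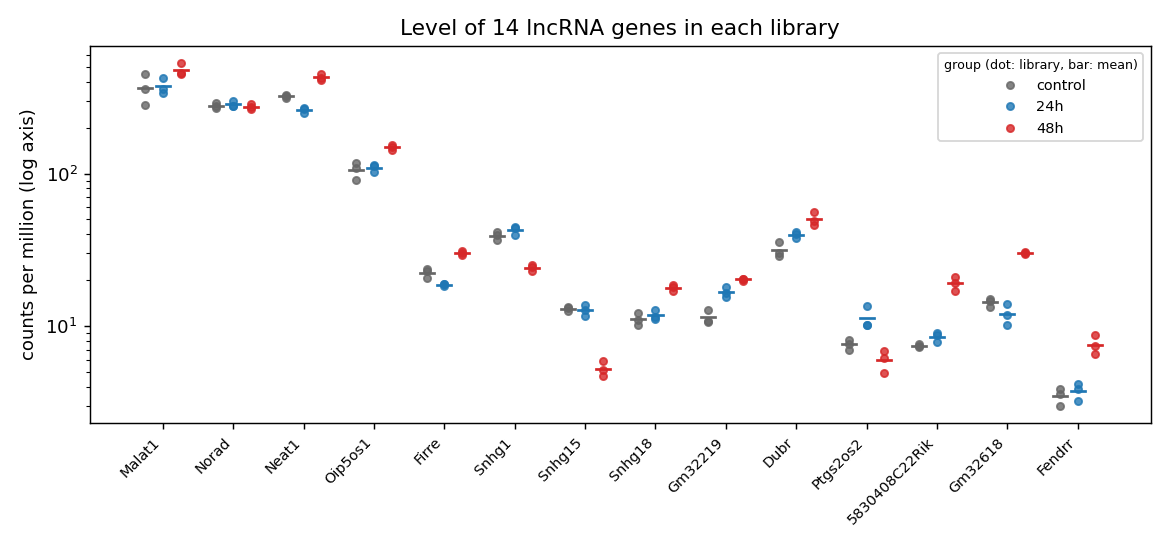
CPM in each library, on a log axis, for 14 lncRNA members in control, 24h and 48h (dot: library, bar: mean of 3). Neat1 lies lowest at 24 h and highest at 48 h, Norad is level, Snhg1 and Snhg15 are lowest at 48 h, and Gm32219 and Dubr rise from control through 24 h to 48 h.

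The snoRNA hosts went against the general direction of the members. Among the members, 24 span at least 1 snoRNA or small Cajal body RNA. Together they span 57 annotated entries of these kinds, some of which cover nearly the same bases. At 48 h 9 of the 24 were lower than in control (37.5%) and 2 were higher (8.33%). Among the 342 members that host neither a snoRNA nor a miRNA, 20 were lower and 100 higher. Of all genes tested, 24.4% were lower and 22.0% higher. None of the 24 snoRNA hosts was called at 24 h by edgeR (3 had an unadjusted p under 0.05), beside only 3.25% higher and 2.90% lower of all genes tested. Their median log2 fold change was 0.07 at 24 h and -0.22 at 48 h. Of the 24 names on the snoRNA host list, 17 were members, and 8 of these fell and 1 rose at 48 h. Compared with 24 h, 13 of the 24 were lower at 48 h (54.2%) and 4 were higher (16.7%). In that comparison 25.4% of all genes tested were lower and 23.7% higher.

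Snhg15, host of 1 snoRNA at chr11:6475295-6478841 (GRCm39), had the largest fall of all members. It was at 13.4, 13.2 and 12.5 CPM in control, 12.8, 11.7 and 13.8 CPM at 24 h and 5.94, 5.15 and 4.70 CPM at 48 h. The 48h libraries lay far below the other 6, and the fall was 1.31 on the log2 scale (that is, -1.31, SE 0.12, adjusted p = 8.66e-08). Snhg1, whose introns hold 8 snoRNAs, was at 39.6, 41.2 and 36.6 CPM in control, 39.8, 43.7 and 44.6 CPM at 24 h and 24.6, 25.2 and 22.9 CPM at 48 h. Its 48h libraries were again the lowest (log2 -0.69, SE 0.07, adjusted p = 4.92e-07).

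Snhg5 fell from 22.0 CPM ± 3.5 to 14.8 CPM ± 0.471 (SD, n = 3, log2 -0.57, adjusted p = 0.000239). Snhg17 fell from 31.9 ± 0.990 to 25.3 ± 1.76 CPM (log2 -0.33, adjusted p = 0.0014), and the less studied host 2700038G22Rik from 5.66 ± 0.240 to 2.94 ± 0.575 CPM (log2 -0.94, adjusted p = 0.000355). These calls passed in every refit, as did that of Snhg4 (log2 -0.50, adjusted p = 0.00089). Snhg4 overlaps, on its own strand, a coding gene entry that is also named Snhg4, so the reads of these entries cannot be told apart. The other 3 lower calls were less firm. Snhg6 (log2 -0.36) lost its call without 48h replicate 3 (adjusted p = 0.0593), Epb41l4aos (log2 -0.40) passed 8 of 15 refits and Snhg16 (log2 -0.42), whose libraries overlapped control, passed 4. Snhg16 did not pass without control replicate 2 or 3, without any one 24h library or without 48h replicate 1 or 3, and its adjusted p reached 0.384. Epb41l4aos did not pass without control replicate 1 or 2, 24h replicate 2 or 48h replicate 1 or 3, and its adjusted p reached 0.155.

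Hosts did not move as a block. Gas5, a growth-arrest RNA, was the most abundant host. It spans 10 annotated snoRNA entries, of which Snord80 and ENSMUSG00002075950 cover nearly the same bases. Gas5 was at 73.3, 70.2 and 76.0 CPM in control, 84.0, 79.0 and 85.9 CPM at 24 h and 75.9, 71.8 and 70.7 CPM at 48 h. All its 24h libraries lay above control without passing the test (adjusted p = 0.0803), and at 48 h it overlapped control. Zfas1 (log2 -0.07) and Snhg8 (17.5 CPM in control and 17.7 CPM at 48 h) were not called. Snhg18 rose from 12.2, 11 and 10.2 CPM in control to 18.6, 17.1 and 18.1 CPM at 48 h, with no overlap (log2 0.69, SE 0.10, adjusted p = 2.11e-05). 2410006H16Rik, host of 3 snoRNAs, rose by 0.34 (SE 0.09, adjusted p = 0.00468).

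The coding genes for the core proteins that snoRNAs assemble with were lower together. None of the 8 listed genes was called at 24 h, when only 3.25% of all genes tested were higher and 2.90% lower. At 48 h all 8 were called below control, beside 24.4% of all genes tested. Nhp2 had the largest difference at -1.38 (SE 0.06, adjusted p = 3.88e-12), followed by Dkc1, the pseudouridine synthase, at -1.06, and Fbl, the methyltransferase fibrillarin, at -0.87. Gar1 had the smallest at -0.50. Many host transcripts carry early stop codons and are removed by nonsense-mediated decay in growing cells. Of 12 genes of that pathway, 5 were lower at 48 h (41.7%) and 1 was higher (8.33%), beside 24.4% and 22.0% of all genes tested. Smg5 (-0.47), Smg9 (-0.43), Upf3a (-0.34), Eif4a3 (-0.33) and Upf1 (-0.21) were lower, and Smg6 (0.42) was higher. None of the 12 was called at 24 h, beside only 3.25% higher and 2.90% lower of all genes tested. Of 644 processed pseudogenes tested, 105 were lower at 48 h (16.3%, beside 24.4% of all genes tested) and 30 were higher, with a median log2 difference of -0.16.

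**Figure D4:**
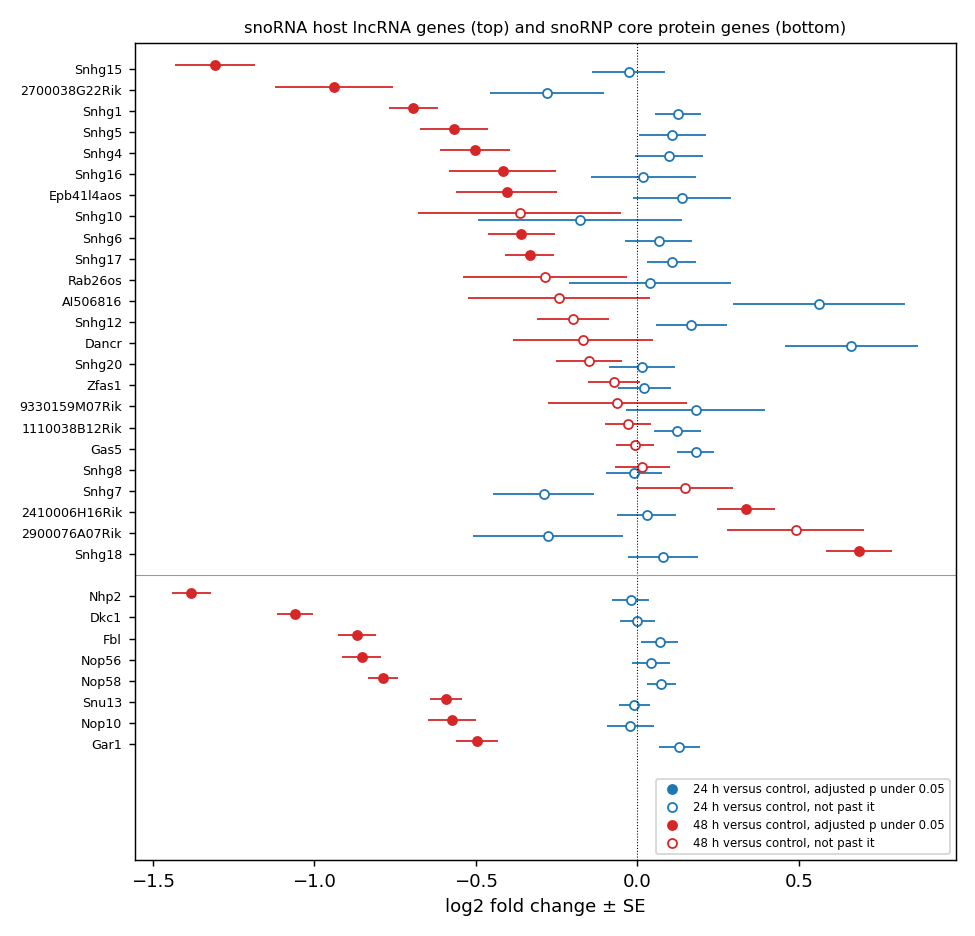
Log2 fold change with its standard error versus control at 24 h and 48 h for the 24 members that host snoRNAs (top) and 8 snoRNP core protein genes (bottom), with filled symbols at an adjusted p under 0.05. At 48 h 9 hosts and all 8 protein genes were lower and 2 hosts, Snhg18 and 2410006H16Rik, were higher, and no symbol at 24 h is filled.

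Of the 17 miRNA hosts, 4 were higher (23.5%) and 5 lower (29.4%) at 48 h. These shares lie near the 22.0% higher and 24.4% lower of all genes tested. None of the hosts was called at 24 h by edgeR (3 had an unadjusted p under 0.05), beside 3.25% higher and 2.90% lower of all genes tested. Of the 29 names on the miRNA host list 6 were members, and 1 of these rose and 3 fell. Mir17hg, the precursor of the growth-promoting miR-17 to miR-92 cluster, was at 12, 8.09 and 7.0 CPM in control, 10.3, 9.96 and 9.52 CPM at 24 h and 6.68, 6.59 and 5.77 CPM at 48 h. Its 48h libraries were the lowest (log2 -0.53, SE 0.17, adjusted p = 0.0146), but control replicate 1 stood high, and without it the difference was -0.24 (adjusted p = 0.219). Without 48h replicate 3 the adjusted p was 0.0623. Gm14636, which spans the hairpins of miR-221 and miR-222, was at -0.59 (adjusted p = 0.0229) and at -0.26 without control replicate 1 (adjusted p = 0.292), and did not pass without 48h replicate 1 (adjusted p = 0.0663) or 3 (adjusted p = 0.0665). Dleu2, host of the tumour-suppressor pair miR-15a and miR-16, was at -0.32 (adjusted p = 0.0172), and Mir100hg, the most abundant miRNA host at 107 CPM in control, at -0.18 (adjusted p = 0.0196). Dleu2 did not pass without control replicate 1 or 3 or 48h replicate 2, nor did Mir100hg without control replicate 1 or 3 or 48h replicate 1 or 2. Snhg4, counted among the snoRNA hosts, also spans miRNA hairpins and is the fifth.

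The 4 hosts that rose passed in every refit. Dnm3os, which carries miR-199a and miR-214 and is needed for skeletal development, was at 33.3, 25.8 and 31.5 CPM in control, 35.8, 34.4 and 32.9 CPM at 24 h and 39.7, 39.7 and 40.5 CPM at 48 h. The 48h libraries were highest and close together (log2 0.40, SE 0.08, adjusted p = 0.000586). 6720427I07Rik, which spans the let-7a-1, let-7f-1 and let-7d hairpins, rose from 5.76 CPM ± 0.301 to 8.21 CPM ± 0.675 (SD, n = 3, log2 0.51, adjusted p = 0.00503). Gm49890, which spans miR-31, rose by 0.44 (adjusted p = 0.000787) and Gm11613 by 0.58 (adjusted p = 0.00407). Mir99ahg and Lncppara, 2 further let-7 hosts, averaged 13.9 and 3.12 CPM in control and were not called, and neither was Mir22hg. Mir100hg also spans a let-7 hairpin, let-7a-2, and its call went the other way (log2 -0.18), so the let-7 hosts were divided.

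Among the 10 members of the list from the growth, p53, inflammation and hypoxia literature, 2 rose and 2 fell at 48 h and 1 rose at 24 h. The 48h shares of 20% each lie near the 22.0% higher and 24.4% lower of all genes tested. Ptgs2os2, known as lincRNA-Cox2 and induced by inflammatory signals in macrophages, was at 8.16, 7.69 and 7.0 CPM in control, 13.5, 10.2 and 10.2 CPM at 24 h and 4.91, 6.23 and 6.89 CPM at 48 h. The groups did not overlap, with 24 h highest. The rise at 24 h was 0.56 (SE 0.15, adjusted p = 0.0291) and lost its call without control replicate 1 (adjusted p = 0.0574), control replicate 2 (adjusted p = 0.0527) or 24h replicate 1 (adjusted p = 0.199). The 48h level was below that at 24 h by 0.91 on the log2 scale (that is, -0.91, SE 0.15, adjusted p = 5.86e-05), and its difference from control, -0.34, passed only without 48h replicate 3 (adjusted p = 0.0483; 0.085 with all libraries). The gene Ptgs2, which encodes cyclooxygenase 2 and lies 50.8 kb away, was at 54.0, 44.2 and 53.9 CPM in control, 99.6, 88.0 and 101 CPM at 24 h and 29.5, 32.1 and 27.3 CPM at 48 h. It had the same order of groups, differing from control by 0.92 on the log2 scale after 24 h (adjusted p = 4.86e-07) and by -0.78 after 48 h (adjusted p = 6.73e-07).

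Morrbid, which lies 15.8 kb from the pro-apoptotic gene Bcl2l11 (Bim) and restrains it in myeloid cells, fell from 7.91, 6.38 and 8.58 CPM in control to 5.54, 4.73 and 5.02 CPM at 48 h. The libraries did not overlap (log2 -0.58, SE 0.14, adjusted p = 0.00285). Bcl2l11 itself was higher at 48 h by 0.60 (SE 0.11, adjusted p = 0.000227). Fendrr, which starts near Foxf1 and is required for heart and body wall development, rose from 3.89, 3.03 and 3.61 CPM to 7.37, 6.59 and 8.70 CPM at 48 h, also without overlap (log2 1.1, SE 0.17, adjusted p = 3.81e-05), beside 0.31 (adjusted p = 0.0126) for Foxf1. Pvt1, which shares its region with Myc, was at -0.26 (adjusted p = 0.0379). It held in 6 of 15 refits and failed without control replicate 1 or 2, 24h replicate 1 or any one 48h library, with adjusted p up to 0.129, while Myc was at -0.64 (adjusted p = 1.49e-08). Bvht, the heart lineage RNA Braveheart, rose by 0.63 (adjusted p = 0.0138) and by 0.45 without control replicate 3 (adjusted p = 0.0679). These neighbours were chosen with values known. Of the imprinted lncRNAs, Kcnq1ot1 and Peg13 were members and were not called, Meg3 had no counts, and none of 4 tested coding genes of the same domains was called at 48 h.

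The members with the largest rises at 48 h were mostly unnamed by function. 5830408C22Rik, at chr8:25591100-25600504 on the plus strand, was at 7.47, 7.36 and 7.60 CPM in control, 8.74, 9.05 and 7.83 CPM at 24 h and 21.0, 17 and 19.3 CPM at 48 h. The 48h libraries were more than 2 times the control level (log2 1.35, SE 0.11, adjusted p = 1.7e-08). It lies antisense to Plekha2, which was higher at 48 h by 0.56 (adjusted p = 4.88e-08). Gm17276 rose from 3.26 CPM ± 0.173 to 7.90 CPM ± 1.02 (SD, n = 3, log2 1.28, adjusted p = 3.53e-06) and lies antisense to Notch3, a receptor gene that rose by 1.42 (adjusted p = 1.42e-05).

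Gm19391 (log2 1.21), A330074K22Rik (1.17), F730043M19Rik (1.16), 2810433D01Rik (1.16), C920021L13Rik (1.11) and Fendrr completed the 8 largest rises with no overlap between libraries, all with adjusted p of at most 0.000557. Gm32618 at chr15:32779002-32796155, which overlaps no coding gene, was at 15.1, 13.3 and 14.6 CPM in control, 14.1, 11.9 and 10.2 CPM at 24 h and 29.9, 30.3 and 30.6 CPM at 48 h. Its 48h libraries were tightly grouped above the rest (log2 1.07, SE 0.10, adjusted p = 6.12e-08). Emx2os, antisense to the homeobox gene Emx2, rose by 0.92 (SE 0.11, adjusted p = 2.25e-06), beside 0.26 (adjusted p = 0.0232) for Emx2. ENSMUSG00000120732, which is among the 10 highest members per kilobase, rose from 43.9 CPM ± 2.40 to 68.4 CPM ± 6.04 (SD, n = 3, log2 0.64, adjusted p = 6.86e-07).

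After Snhg15 the largest falls with no overlap were in Gm36211 (log2 -1.17), Gm20667 (-1.0), 2700038G22Rik (-0.94), Gm42067 (-0.92), Gm49774 (-0.84), Gm17092 (-0.82) and Gm32856 (-0.75). Gm36211 was at 3.52, 3.60 and 2.71 CPM in control and 1.37, 1.26 and 1.71 CPM at 48 h, among the lowest levels the rule could keep. Gm49774 lies antisense to Hmga1, a chromatin protein gene that was at -1.27 (adjusted p = 1.19e-12), and Gm17092 antisense to Hnrnpd, at -0.33 (adjusted p = 9.12e-05). Gm32856 lost its call without control replicate 1 or 48h replicate 3, with adjusted p up to 0.0687.

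Of the 10 calls at 24 h, 3 passed in every refit, those of Neat1, Gm32219 and Gm10076. Gm32219, at chr12:70569372-70591361 with no coding overlap, was at 12.8, 10.8 and 10.7 CPM in control, 15.5, 16.5 and 18.1 CPM at 24 h and 20.5, 19.9 and 20.3 CPM at 48 h. The 3 groups did not overlap, and the log2 rise was 0.54 after 24 h (SE 0.10, adjusted p = 0.00243) and 0.82 after 48 h (SE 0.10, adjusted p = 2.1e-06). Dubr, named for its place upstream of Dppa2, had the same order, at 29.0, 30.3 and 35.8 CPM, then 41.3, 39.9 and 37.9 CPM, then 46.0, 48.7 and 55.6 CPM. Its 48h rise of 0.66 (SE 0.09, adjusted p = 4.32e-06) passed every refit, but the 24h rise of 0.33 (adjusted p = 0.0326) did not pass without control replicate 1 or 2, any one 24h library or 48h replicate 2, with adjusted p up to 0.166.

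Gm10076 is a gene of 407 bases in the count table, but its 31-base words were counted over its GENCODE M39 transcripts. Of 1518 such words 309 (20.4%) occur in other genes, most in the ribosomal protein gene Rpl41. For the 407 bases themselves, how much sequence Gm10076 shares was not determined. Its libraries were at 11.6, 10.7 and 6.47 CPM in control, 27.8, 32.5 and 15.5 CPM at 24 h and 23.6, 11.6 and 17.6 CPM at 48 h, a wide spread within groups. It was higher at 24 h by 1.39 (SE 0.26, adjusted p = 0.00188) and at 48 h by 0.87 (adjusted p = 0.0112, and 0.0795 without 48h replicate 1), while Rpl41 itself was at 0.02 and -0.11 and was not called.

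4933431E20Rik fell at 24 h. It was at 17.4, 15.4 and 20.1 CPM in control, 13.8, 13.3 and 10.5 CPM at 24 h and 21.3, 19.4 and 19.3 CPM at 48 h, so that the 24h libraries lay below all others. The fall was 0.49 (log2 -0.49, SE 0.12, adjusted p = 0.0158) and lost its call without control replicate 1 (adjusted p = 0.0528) or 24h replicate 3 (adjusted p = 0.113). It lies antisense to the glutathione transferase gene Gstm5, at -0.25 at 24 h (adjusted p = 0.073). Gm28875 (-0.33), Gm47467 (-0.55), Gm17484 (-0.81) and F730043M19Rik (0.54) made up the remaining calls at 24 h. The last 3 had adjusted p between 0.0482 and 0.0498 and lost the call in most refits, and Gm28875 lost it without control replicate 1 or 2 or 24h replicate 1 or 3. Gm47467 shares 48.3% of its 31-base words with other genes.

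Most members lay over or beside a coding gene. By the table's gene spans, 120 members neither overlapped a coding gene nor started near one, 72 had a start within 1 kb of an oppositely transcribed coding gene without overlapping one, 161 overlapped one on the opposite strand and 26 on the same strand. At 48 h 36 of the first were higher and 18 lower (30% and 15%), and 25 and 2 of the divergent starts (34.7% and 2.78%). Among antisense members 37 were higher and 11 lower (23.0% and 6.83%), and among same-strand members 8 and 2 (30.8% and 7.69%). The background over all genes tested was 22.0% higher and 24.4% lower. The libraries were made with a strand-marking kit, but the strand setting of the counting is not given in the sources used here. Reads of an antisense member and its coding partner may therefore not be fully told apart, and for same-strand members they cannot.

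Of 93 divergent pairs with both genes tested, 26 had both genes called at 48 h. Both rose in 12, both fell in 2, and in the other 12 the lncRNA rose while the coding gene fell. The reverse, a lncRNA that fell beside a coding gene that rose, was found in none. Of all coding genes tested, 23.4% were higher and 27.1% were lower at 48 h. Whether the pair counts differ from what the shares in each gene class would give was not tested. Over the 93 pairs Pearson's r between the 2 log2 fold changes was 0.35 and Spearman's rho 0.30, a description over pairs that share the same libraries. Of 179 antisense pairs 25 had both called, 19 of them in the same direction, with r of 0.33 and rho of 0.27. At 24 h no pair of any kind had both genes called. Few could, because the member was called in only 1 divergent, 3 antisense and 0 same-strand pairs. Of all coding genes tested, 3.67% were higher and 3.25% lower at 24 h. The pairs were defined by the table's gene spans. By the canonical starts of GENCODE M39, 52 of the 93 divergent pairs also started within 1 kb, 8 lay farther apart, 31 had the starts in the other order and 2 had a gene with no listed start.

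As examples, 3 divergent pairs are described. Snhg18 and the semaphorin gene Sema5a start 135 bases apart and both rose, by 0.69 and 1.11. E130307A14Rik and Rev3l, the catalytic subunit of DNA polymerase zeta, both rose, by 0.91 and 1.08. D430020J02Rik rose by 0.41 (adjusted p = 0.000504) while Ncapg2, a condensin subunit gene needed for mitosis, fell by 0.28 (log2 -0.28, adjusted p = 0.0058). The region that the genes share follows for the first and the last of these pairs, from 30 bases inside one gene to 30 bases inside the other, on the strand of the lncRNA (GRCm39). The capitals mark a match to TGANTCA, found in the second of these 2 regions and not in the first.
Snhg18 and Sema5a, chr15:32244754-32244949: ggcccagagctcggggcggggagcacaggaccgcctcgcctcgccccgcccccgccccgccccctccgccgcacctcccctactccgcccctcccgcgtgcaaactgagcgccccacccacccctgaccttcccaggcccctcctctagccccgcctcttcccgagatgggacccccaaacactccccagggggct
D430020J02Rik and Ncapg2, chr12:116368800-116368992: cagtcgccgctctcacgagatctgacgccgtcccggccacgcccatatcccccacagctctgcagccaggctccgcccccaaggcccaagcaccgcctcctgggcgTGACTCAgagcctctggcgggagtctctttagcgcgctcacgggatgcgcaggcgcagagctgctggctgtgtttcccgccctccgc

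In the first pair Sema5a was at 40.8, 34.4 and 46.0 CPM in control and 80.0, 83.8 and 99.0 CPM at 48 h. In the second, E130307A14Rik was at 11.3, 10.5 and 12.5 CPM in control, 12.7, 11.3 and 10.9 CPM at 24 h and 21.1, 20.9 and 22.3 CPM at 48 h, with no overlap at 48 h (SE 0.10, adjusted p = 5.06e-07). Rev3l was at 108, 76.2 and 123 CPM in control and 200, 220 and 232 CPM at 48 h. E130307A14Rik also overlaps Traf3ip2 on the opposite strand, which was higher by 0.78 (adjusted p = 6.38e-07).

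Snhg1 and the amino acid transporter gene Slc3a2, divergent by the table's spans but with canonical starts 9076 bases apart, both fell, by 0.69 and 0.53 (adjusted p = 2.62e-07 for Slc3a2). ENSMUSG00000120992, which GENCODE M39 lists as protein-coding and whose canonical start lies in the other order, rose slightly, from 146 CPM ± 1.91 to 165 CPM ± 3.58 (SD, n = 3, log2 0.18, adjusted p = 0.00767), beside the valyl-tRNA synthetase gene Vars, which was at -0.68 (adjusted p = 2.23e-09). Gm20186 with Lsm8 (0.52 and -0.21) and 5530601H04Rik with Pbdc1 (0.54 and -0.27) had the same opposite signs, all 4 called. The canonical starts of 5530601H04Rik and Pbdc1 lie 9539 bases apart. Gm20186 shares 68.9% of its 31-base words with other genes.

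Among overlapping pairs of high count, several members were called where the coding gene was not, or the reverse. Rab10os rose by 0.51 while Rab10, the vesicle traffic gene it overlaps, was at -0.06 and was not called. Zfas1 was not called (log2 -0.07) while Znfx1 on the opposite strand rose by 0.52 (adjusted p = 2.01e-06). On the same strand, B930095G15Rik within Farp1 rose from 13.8, 13.5 and 18.4 CPM to 27.5, 27.7 and 29.0 CPM at 48 h. Its libraries did not overlap (log2 0.88, SE 0.12, adjusted p = 9.73e-06), and Farp1 rose by 0.37. Gm12940, which overlaps the end of Sfpq, rose by 0.33 (adjusted p = 0.0242, and 0.0826 without 48h replicate 1), while Sfpq was at -0.30. Chaserr, which represses its neighbour Chd2, was at 0.22 and was not called, beside 0.24 (adjusted p = 0.0242) for Chd2.

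**Figure D5:**
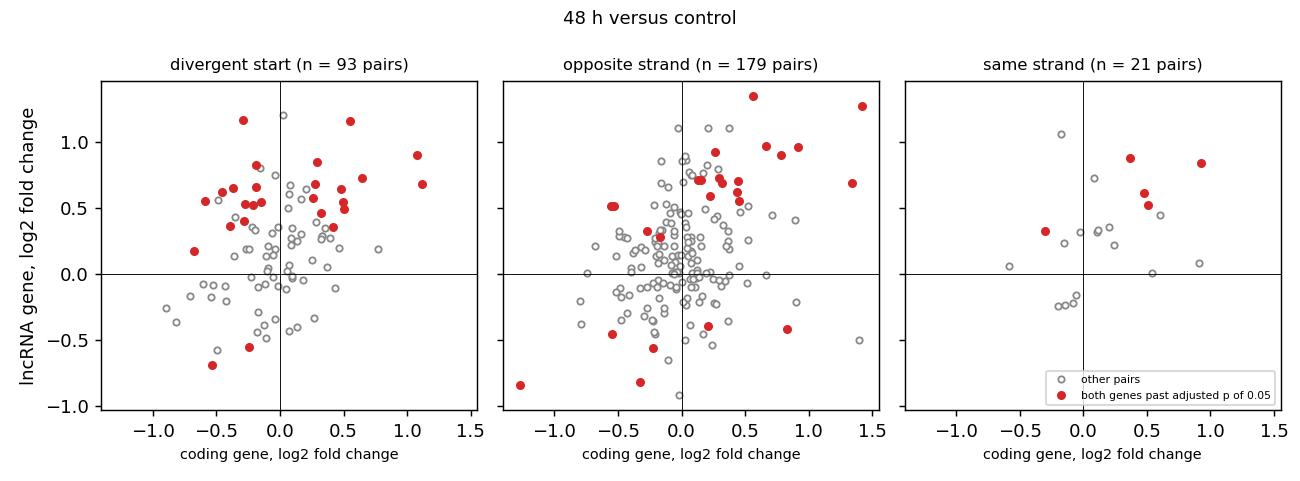
Log2 fold change at 48 h versus control of each lncRNA member against that of its coding partner, for divergent starts (93 pairs), opposite-strand overlap (179 pairs) and same-strand overlap (21 pairs), with pairs in which both genes were called filled. Among divergent pairs the filled symbols lie above 0 on the lncRNA axis in 24 of 26 cases, on both sides of 0 for the coding gene.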

How the data were processed

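Total RNA of MLO-Y4 cells from 9 libraries was sequenced, with 3 libraries in each of the control, 24h and 48h groups. The deposited values are raw read counts per gene. The submitters' processing notes name HISAT2, featureCounts 2.06 and GRCm39, and the strand setting is not given in the sources used here. Counts were analysed as deposited, with TMM scaling, filterByExpr (minimum count 10) and edgeR's quasi-likelihood test (edgeR 4.0.16, R 4.3.3) over 13812 genes, with all 9 libraries sharing 1 spread estimate and Benjamini-Hochberg adjustment over all genes tested. CPM used each library's total over the tested genes times its TMM factor. The totals over all genes were 12250628 to 18515456. DESeq2 1.42.0 served as an alternative. The procedure was tested on simulated data. GENCODE M39 and GRCm39 gave starts and sequences, and RefSeq gave mature miRNAs. Hosted small RNAs and overlap with coding genes were taken from gene spans in the table, and starts within 1000 bases on opposite strands were called divergent.

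The members and the gene lists were chosen with earlier results of these data known. Members named were those on the lists (nuclear architecture and X inactivation, snoRNA hosts, miRNA hosts, imprinted domains, growth to hypoxia literature), the 8 largest non-overlapping calls in each direction and comparison, the 10 highest per kilobase or in CPM, up to 8 pairs of each overlap kind, opposite calls, and those at the count threshold. Other members, among them hosts found by annotation, were named after their values were seen. Alternatives were another scaling, filter, tool, threshold, count minimum, annotation, a replicate block and the omission of each library.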

Additional observations from a re-analysis of the deposited data

Results flagged for a closer look

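In 107 of the 379 members the fitted differences from control had opposite signs at 24 h and 48 h and the 2 times differed. The difference between the times passed edgeR's quasi-likelihood test over all genes. The share of all genes tested that met both conditions was not determined. Between 48 h and 24 h, 23.7% of all genes tested were called higher and 25.4% lower. In 3 of the 107 members the 24h difference from control passed as well, and only these 3 are described here. Neat1 was lower than control at 24 h and higher at 48 h, a difference of 0.71 on the log2 scale (adjusted p = 1.54e-09). 4933431E20Rik had the same order, with a difference of 0.67 (adjusted p = 8.4e-05), and its own difference from control passed only at 24 h. Ptgs2os2 was higher than control at 24 h and lower at 48 h, with a difference of -0.91 (adjusted p = 5.86e-05), and its 48h difference from control did not pass. All 3 differences between the times passed in 15 of 15 refits. The 24h differences from control were less firm, and passed in 15 of 15 refits for Neat1, 13 for 4933431E20Rik and 12 for Ptgs2os2. The 3 libraries of each time were on the same side of the other time in each gene.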

How the results depend on the processing

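Among the lncRNA members and comparisons followed through the alternatives, no direction turned, and the changes below are in counts and calls. Directions of the coding genes named above, and of some members such as Gas5 and Norad, were not followed. At 48 h against control, the higher and lower counts (106 and 33) became 11 and 2 at an absolute log2 fold change of at least 1, and 61 and 20 for members without coding overlap, where fewer genes are counted. The lower count was 18 at an adjusted p under 0.01, and the higher count was 58 with a minimum count of 50, which leaves 166 members, with a median of 0.14. At 24 h, the higher and lower counts (5 and 5) became 2 and 1 at an adjusted p under 0.01 and 1 and 0 at a fold change of at least 1. The higher count was 9 without the filter on low counts. The lower count was 3 with RLE size factors, 2 with only the 2 groups compared, 3 with DESeq2 and 3 without coding overlap, and the median was -0.011 with a minimum count of 50. The cause was not tested. Between 48 h and 24 h, the counts (124 and 34) became 14 and 2 at a fold change of at least 1 and 63 and 20 with a minimum count of 50 (median 0.18), the higher count was 69 without coding overlap, and the median was 0.27 with library sizes alone. Leaving out 1 library gave 92 to 106 higher and 21 to 32 lower at 48 h, 2 to 11 and 1 to 6 at 24 h, and 107 to 133 and 27 to 35 between the times, with medians of 0.17 to 0.22, -0.06 to -0.02 and 0.22 to 0.25. With the replicate block the counts were 104 and 33, 5 and 4, and 122 and 35, and the block changed the calls of F730043M19Rik and Gm17484 at 24 h and of Gm10076 between the times. Deviations of same-numbered libraries from their group means correlated between -0.0493 and 0.0775, beside -0.097 to 0.0949 for different numbers. No strong shift was shared by number, but such correlations cannot show whether same-numbered libraries had a common culture or batch. Restriction to lncRNA in GENCODE M39 and omission of members with shared sequence were chosen after seeing the data and left every count within 1.5 times. With 3 libraries a group, small differences in members of a few CPM could not be resolved at this depth.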
